A study of Mus musculus with 18 samples.

Results

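The 6 chemokine receptor genes Ccr2, Ccr4, Ccr6, Ccr8, Cxcr3 and Cxcr6, which guide T cells to inflamed tissue, were followed across 6 sorted CD4+ T-cell populations. The members were chosen by name, with earlier results of these data known, so counts of members set beside all genes are descriptions and test no enrichment. All 6 were among the 15402 genes of the expression table. RNA was sequenced in 18 libraries from female C57/BL6 mice that carried both the Foxp3Timer and the Foxp3-IRES-GFP reporter, of an age of 5 to 10 weeks at sensitisation. All groups came from mice treated with 3% oxazolone on abdominal skin, and cells were taken from draining lymph nodes on day 5, so there was no untreated group. In Foxp3-Tocky mice the Timer protein is made when Foxp3 is transcribed, and its blue form matures into a red form. Tnaive cells were CD44lo GFP- Timer- and Teff cells were CD44hi GFP- Timer-. Among GFP+ cells, Pers1 cells had intermediate blue and low red fluorescence, and Pers2 cells were high in both. PAt cells were low in blue and high in red fluorescence, and Arrested cells had lost the blue form and kept intermediate red. Each population had 3 libraries, each from a pool of 3 mice. Pers1 and Pers2 together are called persistent Foxp3 expressors.

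Chemokine receptors are membrane proteins that couple to inhibitory G proteins and turn a gradient of chemokine into directed migration and integrin activation. Ccr2 binds Ccl2 and related ligands made at inflamed sites, and Ccr4 binds Ccl17 and Ccl22, which draw T cells to skin and to dendritic cells. Ccr8 binds Ccl1 and Ccl8, and is known from regulatory T cells and skin-resident T cells. Cxcr3 is the receptor of the interferon-induced chemokines Cxcl9 and Cxcl10 and a target of T-bet, Cxcr6 binds Cxcl16, and Ccr6 binds Ccl20 made at epithelia and is carried by Th17 cells and by B cells.

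In the GENCODE vM21 annotation of GRCm38 (mm10), 4 of the 6 genes lie on chromosome 9. Ccr2 spans 124101950 to 124113557, Ccr4 spans 114490316 to 114504916, Ccr8 spans 120092114 to 120094906 and Cxcr6 spans 123806475 to 123811760. Ccr6 lies on chromosome 17 from 8236043 to 8257141, and Cxcr3 on chromosome X from 101731535 to 101734269. Cxcr6 sits inside Fyco1, a gene of the opposite strand, but shares 0 of its 1931 exon bases with exons of Fyco1. None of the other 5 receptor genes overlaps an annotated gene. Of the 6709 windows of 100 bases in Ccr2 transcripts, 0.79% also occur in transcripts of other genes, and no window of the other 5 members is found in another gene's transcripts.

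The 250 bases before the RefSeq start site are shown for Ccr2, Ccr4 and Cxcr3, whose levels followed each other most closely, and for Ccr6, which behaved differently (GRCm38.p6, 5′ to 3′ on the strand of the gene). Capitals mark matches, on either strand, to a motif of each of 6 factor families. The letters searched were TGANTCA for the AP-1 family, then AGATAA for the family of Gata3, and GTAAACA for forkhead factors such as Foxp3. They were TGTGGT for Runx factors, and AGGTGTGA for T-box factors such as T-bet, and TTCNNNGAA for STAT factors.
Ccr2, chr9:124101933-124102182, plus strand: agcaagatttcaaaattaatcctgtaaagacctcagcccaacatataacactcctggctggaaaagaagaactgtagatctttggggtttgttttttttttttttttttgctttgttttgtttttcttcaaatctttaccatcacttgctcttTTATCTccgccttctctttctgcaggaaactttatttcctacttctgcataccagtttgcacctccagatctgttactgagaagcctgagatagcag
Ccr4, chr9:114496545-114496794, minus strand: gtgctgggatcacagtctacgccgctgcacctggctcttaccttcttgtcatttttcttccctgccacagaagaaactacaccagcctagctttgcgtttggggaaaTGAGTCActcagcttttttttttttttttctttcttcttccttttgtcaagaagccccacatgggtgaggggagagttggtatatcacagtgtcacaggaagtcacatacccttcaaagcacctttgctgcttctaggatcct
Cxcr3, chrX:101734148-101734397, minus strand: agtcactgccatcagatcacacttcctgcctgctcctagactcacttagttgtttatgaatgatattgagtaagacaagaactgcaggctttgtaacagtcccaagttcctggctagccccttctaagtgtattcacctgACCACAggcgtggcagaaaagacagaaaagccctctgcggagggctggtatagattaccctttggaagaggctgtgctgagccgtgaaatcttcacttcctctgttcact
Ccr6, chr17:8235793-8236042, plus strand: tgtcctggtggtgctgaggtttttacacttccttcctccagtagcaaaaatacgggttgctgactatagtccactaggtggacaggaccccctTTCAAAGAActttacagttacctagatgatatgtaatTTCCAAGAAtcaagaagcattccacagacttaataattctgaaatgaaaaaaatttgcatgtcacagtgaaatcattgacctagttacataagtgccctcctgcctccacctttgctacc
Ccr2 held a GATA match 97 bases before its RefSeq start, on the other strand, and Ccr4 an AP-1 match 143 bases before its RefSeq start. Cxcr3 held a Runx match 110 bases before its RefSeq start. These matches of Ccr2, Ccr4 and Cxcr3 lie inside the longer GENCODE genes, not upstream of them. The Ccr6 window held STAT matches that began 157 and 120 bases before the start. A Ccr6 start further downstream had a GATA match only, as had Ccr8, and Cxcr6 had a Runx match. Of 32851 mouse windows of this length, 6.75% held the AP-1 letters, 9.99% the GATA letters, 14.0% the Runx letters and 7.02% the STAT letters. Forkhead and T-box letters, in 3.17% and 1.12% of all windows, were not found in any window of the 6 genes. No motif was shared by Ccr2, Ccr4 and Cxcr3 in these windows.

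The table holds log2 normalised counts, so that a difference of 1 is a 2-fold difference. Depth per library is unknown, and the transform of the authors draws differences of genes with few reads towards 0. A gene was called at an adjusted p under 0.05 (limma) and an absolute log2 fold change over 1, among 13190 tested genes. As a check of the labels, Foxp3 had mean values of 14.42 to 14.82 in the 4 GFP+ populations, 11.34 in Tnaive and 10.54 in Teff cells, and Cd44 was 9.61 in Tnaive and 13.05 in Teff cells. The 4 measured markers of CD4+ T cells summed to a log2 level of 15.80 to 16.51 in every library. Markers of other cells were also present, above all in Teff. The 6 dendritic cell markers summed to 11.21 to 11.75 in Teff libraries and to 6.80 to 7.34 in the other 15, and Siglech, which marks plasmacytoid dendritic cells, averaged 10.62 in Teff and 3.58 to 4.30 elsewhere. The 6 B cell markers summed to 11.60 to 12.25 in Teff, 11.67 to 11.89 in PAt, 11.28 to 11.58 in Arrested, 10.52 to 10.81 in persistent and 9.57 to 9.98 in Tnaive libraries. The 6 measured monocyte and macrophage markers reached 11.34 to 11.57 in Teff and 9.13 to 10.30 elsewhere, and the CD8 T cell markers at least 11.51 in Teff and 9.65 to 10.70 elsewhere. NK cell markers summed to 8.97 to 9.42 in Tnaive and Teff and 7.20 to 7.69 in GFP+ libraries. In Tnaive this sum was mostly Eomes, at a mean of 9.13, while Ncr1, Klre1 and Klrb1c averaged 2.76, 2.85 and 4.80. In Teff, Eomes averaged 7.88, and Klrb1c was higher than in Tnaive by 3.20 (SE 0.11). The similar sums of Tnaive and Teff thus rest on different genes. In sorted bulk cells, fewer cells that express a receptor and less RNA per cell cannot be told apart.

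Ccr2 had the widest range of levels among the members. Its log2 values were 13.86, 13.90 and 13.91 in Pers1 and 13.95, 13.80 and 14.16 in Pers2. They were 10.68, 10.73 and 10.77 in Teff, 9.62, 9.73 and 9.66 in PAt, 9.84, 9.70 and 10.02 in Arrested, and 5.87, 5.78 and 6.53 in Tnaive. All 6 persistent libraries lay above all 12 others, and Tnaive libraries lay below all. In the order of population means, Pers2 against Pers1 did not pass the adjusted threshold (log2 difference 0.08, SE 0.13, adjusted p = 0.79). Arrested against PAt did not pass it either (0.18, SE 0.13, adjusted p = 0.509), while Teff exceeded Arrested by 0.87 (SE 0.13, adjusted p = 1.29e-05).

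Ccr4 was also highest in the persistent populations, with Pers1 on top. Its values were 13.80, 13.58 and 13.78 in Pers1 and 13.58, 13.31 and 13.45 in Pers2. Teff libraries had 12.10, 11.86 and 12.21, Arrested 11.21, 10.86 and 11.10, PAt 10.74, 10.54 and 10.78, and Tnaive 7.11, 7.05 and 7.43. Persistent, Teff, the PAt and Arrested pair, and Tnaive libraries formed 4 levels that did not overlap. Pers1 was above Pers2 by 0.27 on average and Arrested above PAt by 0.37, neither of which passed the adjusted threshold (adjusted p = 0.12 and 0.0542). These limma p-values do not use the pairing of libraries by replicate number, and in both pairs the libraries did not overlap.

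Cxcr3 also peaked in the persistent populations, at 11.94, 12.11 and 12.11 in Pers1 and 11.81, 12.10 and 11.97 in Pers2. Teff libraries were close below, at 11.02, 11.07 and 11.20. Arrested libraries had 9.94, 9.94 and 9.90, PAt 9.69, 9.31 and 9.79, and Tnaive 6.11, 5.58 and 5.80. The gap from the lowest persistent to the highest Teff library was smaller than for Ccr2 or Ccr4, but the groups did not overlap. Pers1 against Pers2 (adjusted p = 0.695) and Arrested against PAt (adjusted p = 0.127) did not pass the threshold, although all Arrested libraries lay above all PAt libraries. These p-values do not use the pairing of libraries either.

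Cxcr6 was the member for which Teff cells stood highest on average. Its values were 10.52, 10.52 and 10.78 in Teff, 10.32, 10.35 and 10.56 in Pers1, and 10.46, 10.21 and 10.64 in Pers2. PAt libraries had 8.14, 8.0 and 8.48, Arrested 7.65, 7.55 and 7.93, and Tnaive 6.72, 6.37 and 6.97. Teff and persistent libraries overlapped, and Teff differed from Pers2 by 0.17 (SE 0.15, adjusted p = 0.359) and from Pers1 by 0.20 (SE 0.15, adjusted p = 0.276). PAt and Arrested were also next to each other, with a difference of -0.49 (SE 0.15, adjusted p = 0.0653), although the Arrested libraries lay below all PAt libraries. This p-value, too, does not use the pairing of libraries.

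Ccr8 separated GFP+ from GFP- cells. Its values were 11.03, 10.79 and 10.74 in Pers2, 10.42, 10.23 and 10.22 in Pers1, 9.83, 9.57 and 9.59 in PAt, and 9.35, 9.05 and 8.73 in Arrested. Teff libraries had 7.60, 7.44 and 7.46, and Tnaive 6.94, 6.94 and 6.98. No 2 of the 6 populations overlapped, and each step of the order passed an adjusted p under 0.05, from Pers2 over Pers1 (0.57, SE 0.12, adjusted p = 0.00489) and Pers1 over PAt (0.63, SE 0.12, adjusted p = 0.000158) down to Teff over Tnaive (0.55, SE 0.12, adjusted p = 0.00064).

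Ccr6 had another order, with PAt cells on top. Its values were 10.19, 9.95 and 10.13 in PAt, 9.81, 9.81 and 9.90 in Pers2, 9.59, 9.35 and 9.45 in Arrested and 8.94, 8.73 and 8.65 in Pers1. Teff libraries had 8.31, 8.14 and 8.36, and Tnaive 5.39, 5.63 and 5.67. No 2 populations overlapped here either. PAt exceeded Pers2 by 0.25 (SE 0.11, adjusted p = 0.0489), Pers2 exceeded Arrested by 0.38 (SE 0.11, adjusted p = 0.00427), and Arrested exceeded Pers1 by 0.69 (SE 0.11, adjusted p = 9.82e-06).

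**Figure D1:**
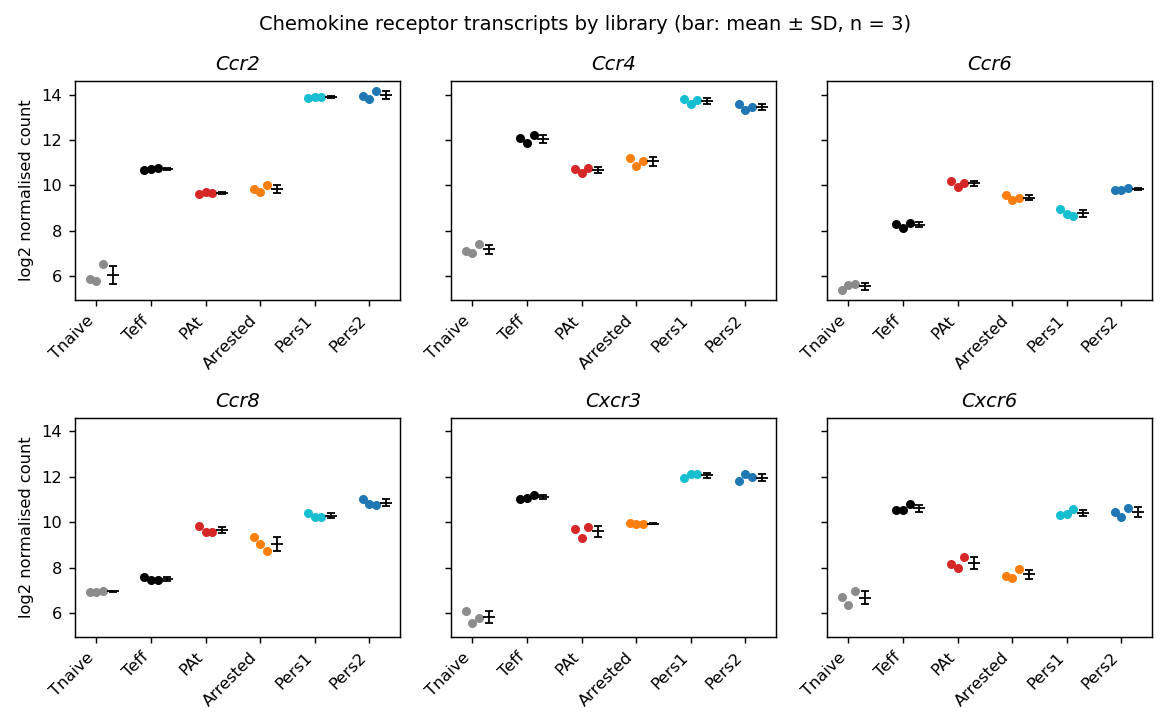
Each panel plots the log2 normalised count (y axis) of a receptor gene in the 6 populations (x axis); coloured points are libraries, and black bars give the mean and SD of 3 libraries. Ccr2, Ccr4 and Cxcr3 peak in Pers1 and Pers2, Cxcr6 overlaps between Teff and these, Ccr8 steps down from Pers2 to Tnaive, and Ccr6 is highest in PAt, at a mean of 10.09.

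To compare levels between genes, the mean log2 value was divided by the annotated exon length in kilobases, on the linear scale. Per kilobase, Pers1 cells had most Ccr4 (log2 level per kilobase 12.09), then Cxcr3 (11.27), Ccr2 (11.14), Ccr8 (10.06) and Cxcr6 (9.46), and least Ccr6 (7.56). In PAt cells the order ran from Ccr8 (9.43), Ccr4 (9.06), Ccr6 (8.88) and Cxcr3 (8.81) to Cxcr6 (7.26) and Ccr2 (6.91). The receptor that held the second lowest level per kilobase in Tnaive cells was Ccr6 (4.35), above Ccr2 (3.31), and Ccr8 was highest there (6.72). Tnaive values of Ccr8 had an SD of 0.02, against 0.15 to 0.41 for the other members. The transform may hold such values near the mean of the gene, so this rank may not reflect abundance. These levels depend on the transcripts assumed, which for Ccr2 total 6760 exon bases and for Ccr8 1175, and differences between genes were not tested.

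The comparison of persistent expressors with PAt and Arrested cells set frequent against infrequent Foxp3 transcription. The paper also describes persistent expressors as activated, dividing cells, and this comparison cannot tell these traits apart. Of the 6 members, 5 were called higher and 0 lower in the persistent populations, where 4.74% of all tested genes were called higher and 2.77% lower. Ccr2 was 18-fold higher (log2 fold change 4.17, SE 0.09, adjusted p = 1.28e-18), the second highest fold change among the 13190 genes. Ccr4 was 6.56-fold higher (2.71, SE 0.08, adjusted p = 3.17e-17), Cxcr6 5.52-fold (2.47, SE 0.11, adjusted p = 2.09e-14), Cxcr3 4.74-fold (2.25, SE 0.08, adjusted p = 2.07e-15) and Ccr8 2.33-fold (1.22, SE 0.09, adjusted p = 6.96e-11). For these 5 genes each of the 6 persistent libraries exceeded each of the 6 PAt and Arrested libraries. The share of all tested genes that separated in this way was not counted. Between single populations of these groups, 60% to 62.5% of tested genes reached an adjusted p under 0.05 in limma. Ccr6 had a log2 fold change of -0.47 (SE 0.08, adjusted p = 1.08e-05), short of the fold threshold, and its libraries overlapped, since Pers2 lay between PAt and Arrested and Pers1 below them. The median log2 fold change of the members was 2.36, against -0.01 over all tested genes. B cell markers were lower in the persistent libraries, with 3 of 6 called and a median of -1.04, as was Cd8a (-1.16). Of 5 tested monocyte and macrophage markers 1 was called higher, Itgam at 2.05 (SE 0.07, adjusted p = 2.05e-16), and 0 lower, at a median of 0.01. The sum of that list was 10.16 to 10.30 in Pers1, 9.38 to 9.48 in Pers2 and 9.13 to 9.83 in PAt and Arrested libraries. The part of these markers in the differences of the receptors was not tested. Siglech had a fold change of -0.06 (SE 0.16, adjusted p = 0.743).

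**Figure D2:**
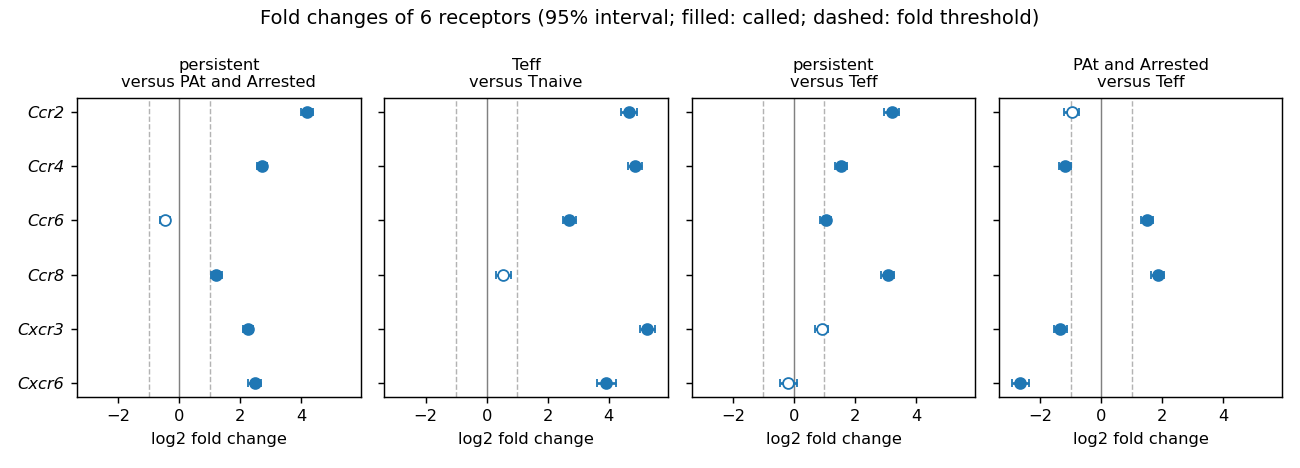
Points give the log2 fold change (x axis) of each receptor (y axis) in 4 comparisons, with 95% intervals from limma; filled points were called and dashed lines mark a log2 fold change of 1 in either direction. Ccr6 is the single member below 0 in the first comparison, and Ccr8 the single open point in the second.

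CD44hi effector cells were compared with naive cells to give the shift of the receptors in conventional T cells. Of the members, 5 were called higher and 0 lower in Teff, against 8.88% and 2.28% of tested genes. Cxcr3 was 38.5-fold higher (log2 fold change 5.27, SE 0.12, adjusted p = 5.36e-19), Ccr4 29.0-fold (4.86, SE 0.11), Ccr2 25.3-fold (4.66, SE 0.13), Cxcr6 15.2-fold (3.92, SE 0.15) and Ccr6 6.55-fold (2.71, SE 0.11). Ccr8 differed by 0.55 (SE 0.12, adjusted p = 0.00064), which was 1.46-fold and not called, although the 3 Teff libraries exceeded the 3 Tnaive libraries. The median of the members was 4.29 and that of all genes 0.00. In the same comparison 5 of 6 dendritic cell markers, 6 of 6 B cell markers and 4 of 5 tested monocyte markers were called higher in Teff, with median log2 fold changes of 2.79, 2.46 and 2.20. Some of the cells that carry these markers are known to express receptors of this group, and their part in the Teff values was not tested.

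Against Teff cells, the persistent populations were called higher for 4 members and lower for 0 (4.28% and 4.03% of tested genes). Ccr2 was 9.22-fold higher (log2 fold change 3.20, SE 0.11, adjusted p = 1.65e-15) and Ccr8 8.40-fold (3.07, SE 0.11, adjusted p = 1.01e-15), the 16th and 17th highest fold changes of all genes. Ccr4 was 2.89-fold higher (1.53, SE 0.09) and Ccr6 2.05-fold (1.04, SE 0.09, adjusted p = 3.83e-09). The call of Ccr6 rested on the fold threshold: it was 0.98 with all libraries recentred to the same median, 0.97 without Teff replicate 2 and 0.99 without Pers1 replicate 1. Cxcr3 was higher in all 6 persistent libraries by 0.91 (SE 0.10, adjusted p = 1.48e-07) and was not called. Cxcr6 did not separate these populations, with a difference of -0.19 and a 95% interval of -0.46 to 0.09 (adjusted p = 0.233). Dendritic cell markers were lower in the persistent populations than in Teff for 4 of 6 genes, at a median of -3.0, and B cell markers for 5 of 6, and their part was not tested.

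PAt and Arrested cells, sorted as low or negative in blue fluorescence, carried more mRNA of the receptors than naive cells. All 6 members were called higher and 0 lower, against 6.63% and 1.27% of tested genes. The log2 fold changes were 4.22 for Ccr6 (SE 0.09, adjusted p = 2.5e-19), 3.93 for Cxcr3 (SE 0.10), 3.70 for Ccr2 (SE 0.11), 3.68 for Ccr4 (SE 0.09), 2.40 for Ccr8 (SE 0.11) and 1.27 for Cxcr6 (SE 0.13, adjusted p = 4.48e-08). All 6 libraries exceeded the 3 Tnaive libraries for each gene, and the share of all tested genes that did so was not counted. An adjusted p under 0.05 in limma was reached by 46.8% of tested genes between PAt and Tnaive and by 43.6% between Arrested and Tnaive. The 6 B cell markers were also higher, at a median of 1.67, while 0 of the 6 dendritic cell markers were called, at a median of 0.13, and the part of B cells, which carry Ccr6, was not tested.

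Set against Teff, PAt and Arrested cells split the members. Ccr8 and Ccr6 were called higher, 2 members where 2.84% of tested genes were, by log2 fold changes of 1.85 (SE 0.11, adjusted p = 3.96e-12) and 1.51 (SE 0.09, adjusted p = 1.1e-11). Cxcr6, Cxcr3 and Ccr4 were called lower, 3 members where 4.04% of tested genes were. Cxcr6 fell by 2.65 on the log2 scale (SE 0.13, adjusted p = 3.31e-13), Cxcr3 by 1.33 (SE 0.10) and Ccr4 by 1.18 (SE 0.09). Ccr2 had a log2 fold change of -0.96 (SE 0.11, adjusted p = 3.76e-07), just inside the fold threshold, and of -1.01 without Arrested replicate 3. For every member the 6 libraries lay on the same side of the 3 Teff libraries, and the share of all tested genes that did so was not counted. An adjusted p under 0.05 in limma was reached by 48.6% of tested genes between PAt and Teff and by 46.8% between Arrested and Teff. This comparison shares its libraries with those above, and 4 of 6 dendritic and 5 of 5 monocyte markers were also called lower than in Teff.

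Neighbouring Timer populations differed little. Between Pers2 and Pers1, 1 member was called higher and 0 lower in Pers2, against 0.144% and 0.0455% of tested genes. That member was Ccr6, 2.10-fold higher in Pers2 (log2 fold change 1.07, SE 0.11, adjusted p = 1.83e-06), the 14th highest fold change of all genes. Ccr8 was 1.48-fold higher (0.57, SE 0.12, adjusted p = 0.00489), and the remaining 4 ranged from -0.27 for Ccr4 to 0.08 for Ccr2 with adjusted p-values of 0.12 or more. Between Arrested and PAt cells, 0 members were called in either direction by limma, against 0.0455% of tested genes higher and 0.0758% lower. At an unadjusted p under 0.05, 5 of 6 members passed, and the share of all tested genes at that level was not counted. Without a threshold on the fold change 2 members passed an adjusted p under 0.05, Ccr6 at -0.63 (SE 0.11, adjusted p = 0.00107) and Ccr8 at -0.62 (SE 0.12, adjusted p = 0.00424), with all Arrested libraries below all PAt libraries. An adjusted p under 0.05 was reached by 10.6% of all genes between Pers2 and Pers1 and by 5.04% between Arrested and PAt. In each pair, these values of Ccr6 and Ccr8 were higher in the population with more red fluorescence. That population also had more blue fluorescence in each pair, so the colours cannot be told apart here. B cell markers had median differences of -0.20 between Pers2 and Pers1 and -0.29 between Arrested and PAt, with 0 of 6 called in each.

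**Figure D3:**
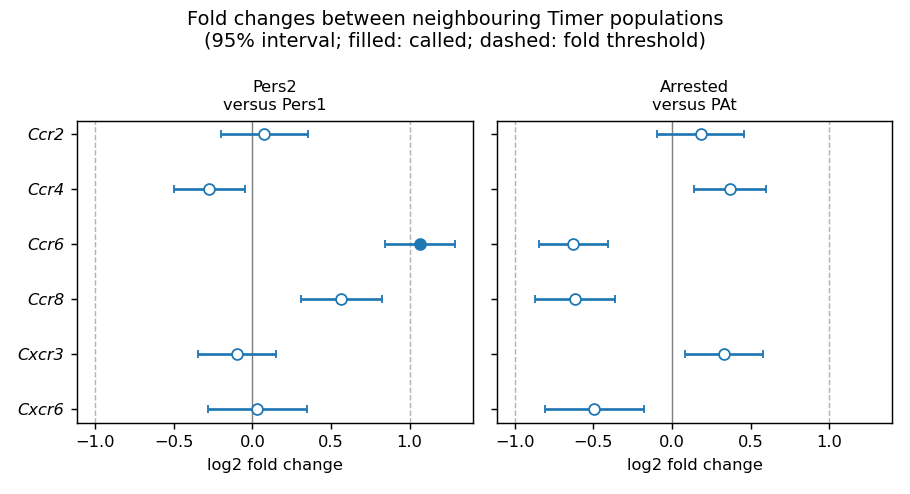
Points give the log2 fold change (x axis) of each receptor (y axis) between Pers2 and Pers1 and between Arrested and PAt, with 95% intervals from limma; filled points were called and dashed lines mark a log2 fold change of 1 in either direction. Ccr6 and Ccr8 lie above 0 on the left and below 0 on the right.

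The difference between persistent and PAt and Arrested cells was also set against the difference between Teff and Tnaive cells in the same model. Of the members, 4 were called lower and 0 higher for the difference of these differences, against 6.9% and 1.52% of tested genes. It was -3.18 for Ccr6 (SE 0.13, adjusted p = 3.01e-14), -3.02 for Cxcr3 (SE 0.15), -2.15 for Ccr4 (SE 0.13) and -1.46 for Cxcr6 (SE 0.18). Cxcr3, Ccr4 and Cxcr6 rose more from Tnaive to Teff than from PAt and Arrested to persistent cells. The shifts of Ccr6 had opposite signs, 2.71 from Tnaive to Teff and -0.47 from PAt and Arrested to persistent cells. For Ccr2 the shifts were 4.66 from Tnaive to Teff and 4.17 among GFP+ cells, with a difference of -0.49 (SE 0.16, adjusted p = 0.0152). Ccr8 was the single member with a positive value, 0.67 (SE 0.15, adjusted p = 0.000914), and neither was called. The lower starting level of Tnaive cells and the markers of other cells in Teff enter this comparison, and their part was not tested.

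Other chemokine receptors were read beside the members, from a list also chosen with earlier results of these data known. Of 17, 16 were in the table and 13 were tested. Between persistent and PAt and Arrested cells, 3 of 13 were called higher and 2 lower, at a median of 0.44. Ccr10, which binds the skin chemokine Ccl27, had values of 9.46, 9.25 and 9.31 in Pers1, 9.01, 8.75 and 8.71 in Pers2, and 5.63 to 6.24 in PAt and Arrested libraries. Its log2 fold change was 3.12 (SE 0.13, adjusted p = 6.85e-15), and its mean in Teff was 9.46, 0.37 above the persistent mean (SE 0.15, adjusted p = 0.0453, not called). Ccr3, the eotaxin receptor, had 8.97, 8.90 and 9.07 in Pers1, 8.99, 9.05 and 9.24 in Pers2, and 5.90 to 6.76 in PAt and Arrested libraries, a log2 fold change of 2.81 (SE 0.12). Unlike Ccr10 it was low in Teff, at a mean of 4.79, and differed between Teff and Tnaive by 0.20 (SE 0.17, adjusted p = 0.32).

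The 2 receptors called lower were Ccr7 and Ccr9. Ccr7, which holds T cells in lymph nodes, had a log2 fold change of -1.37 (SE 0.05, adjusted p = 5.31e-15) in persistent against PAt and Arrested cells. Ccr9, which guides cells to the small intestine, had 6.39, 6.21 and 6.02 in Pers1, 5.71, 5.97 and 5.79 in Pers2, and 7.96 to 8.36 in PAt and Arrested libraries, a log2 fold change of -2.11 (SE 0.11, adjusted p = 2.26e-13). Ccr9 was highest in Teff, at a mean of 9.65, the population that also had the dendritic cell markers. Cxcr5, the receptor of B cell follicles, was not called between persistent and PAt and Arrested cells (-0.16, SE 0.08, adjusted p = 0.0624) and had its highest mean, 12.63, in Teff. Ccr1 (0.93), Ccrl2 (0.85), Cxcr2 (0.83), Xcr1 (0.44), Cx3cr1 (0.11), Ackr4 (-0.23) and Cxcr4 (-0.52) were not called in this comparison.

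**Figure D4:**
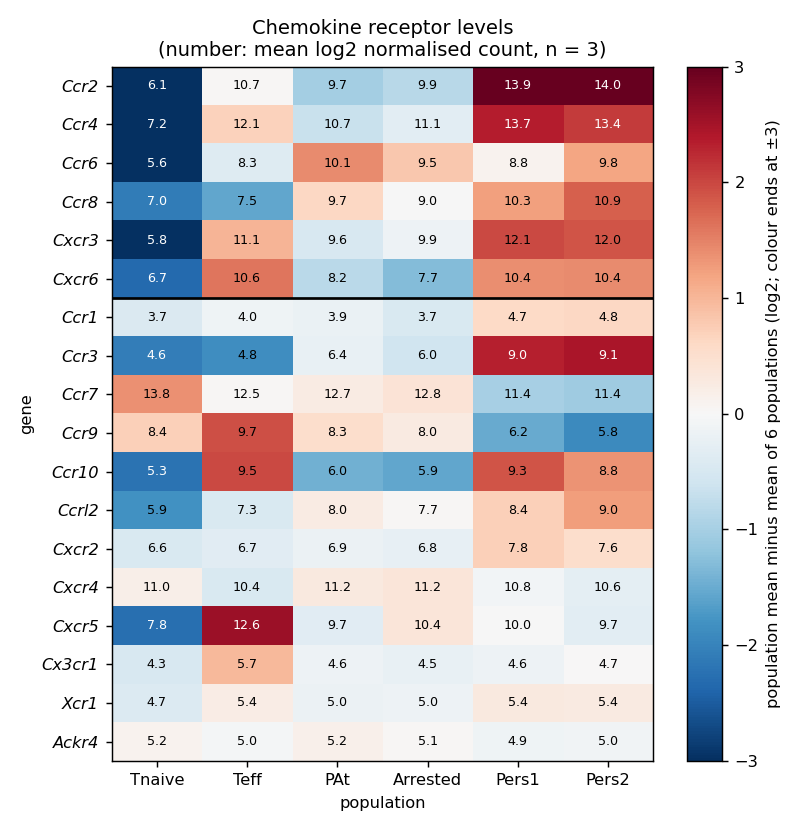
Rows are the 6 members, above the line, and 12 other tested chemokine receptors; columns are populations. Numbers are mean log2 normalised counts of 3 libraries, and colour gives the population mean minus the mean of the 6 populations, cut at 3 in either direction. Ccr10 and Ccr3 share the red of the members in Pers1 and Pers2, and Ccr7 and Ccr9 are blue there.

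Within 500 kb of the start of Ccr2 on chromosome 9 lie Cxcr6 and Ccr3, which were called higher in persistent than in PAt and Arrested cells, as was Ccr2. Some genes between them were not called, such as Fyco1, with a log2 fold change of -0.36 (SE 0.06, mean level 11.59), Xcr1 and Ccr1, and Ccr9, which starts 423.5 kb upstream of Ccr2, was called lower. Fyco1, in whose span Cxcr6 lies, thus had a small change of opposite sign to that of Cxcr6.

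Few genes of chemokines were measured well enough to test. Of 12 ligands of the members, 8 were in the table and 4 passed the filter on low values, and 0 of these 4 were called in either direction between persistent and PAt and Arrested cells by limma (1 at an unadjusted p under 0.05). Cxcl10, a ligand of Cxcr3, had the largest of these differences (0.31, SE 0.11, adjusted p = 0.0157), and the second largest was that of Cxcl16 (0.04, adjusted p = 0.621). Of the other T-cell chemokines Ccl3, Ccl4, Ccl5 and Xcl1, 0 of 4 were called by limma (3 at an unadjusted p under 0.05). The share of all tested genes at that unadjusted level was not counted. Ccl5 differed by 0.44 (SE 0.15, adjusted p = 0.0129) and Ccl4 by 0.32 (SE 0.07, adjusted p = 0.000689).

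Downstream of the receptors, 1 of 29 signalling genes was called higher in persistent than in PAt and Arrested cells and 0 lower, at a median of 0.18. This was Gng2, a G protein gamma subunit, with a log2 fold change of 1.07 (SE 0.04, adjusted p = 1.11e-14). Among 6 genes that build or carry skin-homing selectin ligands, 2 were called higher and 0 lower. Fut7, the fucosyltransferase that completes these ligands, had a log2 fold change of 2.17 (SE 0.07, adjusted p = 1.48e-16), from means of 7.63 and 7.69 in PAt and Arrested to 9.91 and 9.76 in Pers1 and Pers2. Gcnt1, which builds the core branch of the glycan, had 1.91 (SE 0.08, adjusted p = 6.01e-15). Of 6 lineage regulators 2 were called higher and 0 lower. Tbx21, which encodes T-bet, differed by 1.59 (SE 0.10, adjusted p = 1.39e-11) and Prdm1, which encodes Blimp-1 of effector T cells, by 2.97 (SE 0.06, adjusted p = 1.3e-19). Prdm1 did not rise from Tnaive to Teff (0.06, SE 0.08, adjusted p = 0.576), whereas Tbx21 did, by 3.49 (SE 0.14).

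Over the 18 libraries the members correlated with each other to different degrees. Pearson's r was 0.99 between Ccr4 and Cxcr3, 0.98 between Ccr2 and Ccr4 and 0.95 between Ccr2 and Cxcr3, and as low as 0.44 between Ccr6 and Cxcr6 and 0.47 between Ccr8 and Cxcr6. The libraries fall into clusters by population, so these values describe the order of the populations and carry no p. Of deviations from the population means, r was 0.10 between Ccr4 and Cxcr3, 0.56 between Ccr2 and Ccr4 and -0.09 between Ccr2 and Cxcr3. Over all pairs of members it ran from -0.29 for Ccr8 and Cxcr6 to 0.71 for Ccr2 and Cxcr6. Among all other tested genes, Ccr2 was most like the cell cycle genes Uhrf1, Tpx2 and Aurkb (r = 0.995, 0.994 and 0.993), and 339 genes had an r over 0.95 with it. Of deviations from the population means, r with these genes was 0.24, 0.50 and 0.05. For the genes most like the other members, named next, it was 0.02 to 0.58. Ccr4 was most like S100a4, Gna15 and Myo1f (0.995, 0.993 and 0.993), and Cxcr3 most like Myo1f, Maf and S100a4 (0.994, 0.994 and 0.993). Ccr6 was most like Rgs16, a regulator of G protein signalling (0.981), Ldlrad4 (0.980) and Mdfic (0.979), and had 59 genes over 0.95. Ccr8 was closest to Ctnnd1 (0.986), to Tnfrsf9, which encodes the costimulatory receptor 4-1BB (0.986), and to Cdc42se2 (0.986). Cxcr6 was closest to Fam20a (0.986), Ei24 (0.986) and Atf6 (0.983). The means of Rgs16, 11.32 in PAt, 11.09 in Pers2, 10.68 in Arrested and 10.63 in Pers1, had the same order as those of Ccr6. Rgs16 was picked for this likeness, and its Arrested and Pers1 libraries overlapped.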

How the data were processed

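RNA-seq libraries were made from sorted CD4+ T cells with a stranded mRNA kit and read as pairs of 100 bases. Per the labels' processing notes, the authors used CASAVA 1.8.2, FastQC 0.11.2, TopHat2 2.0.9, the mm10 genome and DESeq2. Values for 15402 genes were deposited as log2 normalised counts that span -0.02 to 18.89 and have the form of a regularised log transform. Such values are not counts, so depth and counting error are unknown and precision rests on the spread between 3 libraries, which were separate pools of mice. Whether reads were counted by strand is not given in the sources used here. All 18 value columns were used, and 0 were left out.

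The 13190 genes with a mean of at least 3 were fitted with limma 3.58.1 in R 4.3.3 as 1 linear model of 6 populations on 18 libraries, with variances moderated along a trend and Benjamini-Hochberg adjustment over all tested genes. No pseudocount was added. A call needed an adjusted p below 0.05 together with a log2 fold change beyond 1 in size. On simulated data 200 of 200 changed genes were recovered in the persistent comparison, at a log2 effect of 2 over 13190 genes, with 0 false calls. This effect exceeded the fold threshold and the noise was independent between libraries, so this checked only that the fit runs as meant. It does not bear on the p-values or on calls near the threshold. The 6 populations were sorted from the same mice, so the same replicate number was taken to pair libraries. As a check, deviations from population means correlated at a median of 0.17 over 45 library pairs that shared a number, and at -0.06 over 90 that did not. The main model had no block, as the study names none, so its p-values do not use this pairing.

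The members and lists were chosen with earlier results of these data known. Named genes were the members, the tested other chemokine receptors, the genes of each other list called between persistent and PAt and Arrested cells (or the 2 with the largest fold change), and for each member the 3 genes of highest correlation. Some marker genes of other cells, and Foxp3, Cd44 and Fyco1, were named outside this rule. Values of some genes of the lists are not reported here. Annotation came from GENCODE vM21 and promoter windows from RefSeq (GRCm38.p6), and all 6 members matched. Alternatives were other filters, fewer populations, a replicate block, recentring, no trend, no fold threshold and leaving out each library.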

Additional observations from a re-analysis of the deposited data

Results flagged for a closer look

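The change from PAt and Arrested to persistent cells and the change from Tnaive to Teff cells differed past both thresholds for 4 members, by a contrast of the differences in limma. The difference was -3.18 for Ccr6 (SE 0.13, adjusted p = 3.01e-14), where the first change was -0.47 and the second 2.71. It was -3.02 for Cxcr3 (SE 0.15, adjusted p = 4.35e-13), -2.15 for Ccr4 (SE 0.13, adjusted p = 2.21e-11) and -1.46 for Cxcr6 (SE 0.18, adjusted p = 1.3e-06). Over the fits that each left out 1 library, these ran from -3.25 to -3.09 for Ccr6, from -3.16 to -2.90 for Cxcr3, from -2.26 to -2.07 for Ccr4 and from -1.60 to -1.30 for Cxcr6. Of all tested genes, 6.9% were called lower in this contrast, among them 5 of 6 dendritic cell markers and 6 of 6 B cell markers, whose part in the 4 values was not tested.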

How the results depend on the processing

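With the replicate block no call of a member changed in any of the 8 comparisons. The counts of members called thus stayed those given above beside the shares of all tested genes. Every replicate holds every population, so the block leaves fold changes as they were. Members short of the fold threshold could therefore not become called in this fit. Without the fold threshold, 2 members passed between Pers2 and Pers1 and 2 between Arrested and PAt, where 10.6% and 5.04% of tested genes did. This alternative drops a criterion. Ccr6 in persistent against Teff cells was 0.98 after recentring, and 0.97 to 1.08 when 1 library was left out. Between Pers2 and Pers1, Cxcr6 changed sign in 3 of 6 fits without 1 library (values from -0.0724 to 0.142) and Ccr2 in 1 (values from -0.0169 to 0.160), neither of which was called in any fit. Of the member fold changes without 1 library, 443 of 450 kept their direction and side of the threshold, and of those under other alternatives 287 of 288 did. Depth is unknown, and the transform limits what can be said of Ccr2, Ccr6 and Cxcr3 in Tnaive cells, where levels were lowest. The same limit applies to Ccr8 in Tnaive cells, whose values hardly spread, and to its difference from Teff.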
